A study of Mus musculus with 4 samples.

Results

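Cancer-associated fibroblasts are the connective tissue cells of a tumour, and 10 genes commonly used as their markers are described here: Pdgfra, Pdgfrb, Fap, Acta2, Tagln, Postn, Dcn, Lum, Thy1 and Sparc. They were taken by name, and all 10 were found among the 17574 genes of the series. The samples were tumours of SCC7, a mouse head and neck squamous carcinoma line, injected under the skin of the back of wild-type C3H/HeN mice. Mice of the anti-CD71 group were given antibody to the transferrin receptor CD71 on days 6 and 9, and the control group carried the same tumours with the treatment label Control, whose content (vehicle or another antibody) is not given in the sources used here. Tumours of both groups were taken on day 10 and bulk RNA sequencing gave 2 libraries per group. Mouse age is not given, and nothing states how many animals a library holds, so p-values measure the spread between these libraries. Where a lone anti-CD71 library was compared, they measure the spread between the controls only.

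Fibroblasts respond to platelet-derived growth factor through the receptors encoded by Pdgfra and Pdgfrb. When activated, for instance by transforming growth factor beta, they can become myofibroblasts, which build contractile actin fibres with the products of Acta2 and Tagln. They also lay down matrix, in which decorin (Dcn) and lumican (Lum) bind collagen fibrils, while periostin (Postn) and SPARC are matricellular proteins that link cells to that matrix. Fap encodes a surface protease of activated fibroblasts, and Thy1 a surface glycoprotein of fibroblasts that mouse T cells also carry. None of these genes is exclusive to fibroblasts.

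Values were read as TPM, a transcript abundance scaled for transcript length and library total, so levels of different genes can be set side by side. Read depth is unknown. For anti-CD71 replicate 1 the data break off after 13586 of 59881 transcripts, and the later transcripts are missing, not 0. It listed 7 of the 30 transcripts of these genes, from 6 genes, and for no gene did they reach 90% of the gene's TPM. Gene totals are therefore given for anti-CD71 replicate 2 and both controls, and the 4 libraries are compared by transcript. Markers of tissue around the tumour differed between libraries. The 7 epidermis markers found summed to 17.91 TPM in anti-CD71 replicate 2, against 0.01 and 0.09 TPM in the controls, and the 6 adipocyte markers to 21.48 TPM, against 3.0 and 2.07 TPM. The 7 skeletal muscle markers summed to 76.36 TPM in anti-CD71 replicate 2, against 97.2 and 32.06 TPM in the controls.

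The 10 genes did not stand at a common level. Sparc was highest, with a mean of 494.25 ± 5.89 TPM (SD, n = 3 libraries), above 97.8% of the 11982 genes tested. Pdgfra followed with 82.22 ± 19.7 TPM, above 85.2% of them. Both were separated from the next gene, with no overlap of their ranges. Dcn (29.81 ± 15.77 TPM), Pdgfrb (23.81 ± 11.56 TPM), Thy1 (23.4 ± 5.08 TPM) and Postn (22.35 ± 10.84 TPM) formed a middle group in which each range overlapped that of its neighbour. Acta2 (5.37 ± 1.4 TPM), Lum (4.91 ± 3.94 TPM), Tagln (2.02 ± 0.7 TPM) and Fap (1.67 ± 0.89 TPM) were low, also with overlapping neighbours. Fap lay above only 4.2% of tested genes and Tagln above 6.1%.

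**Figure D1:**
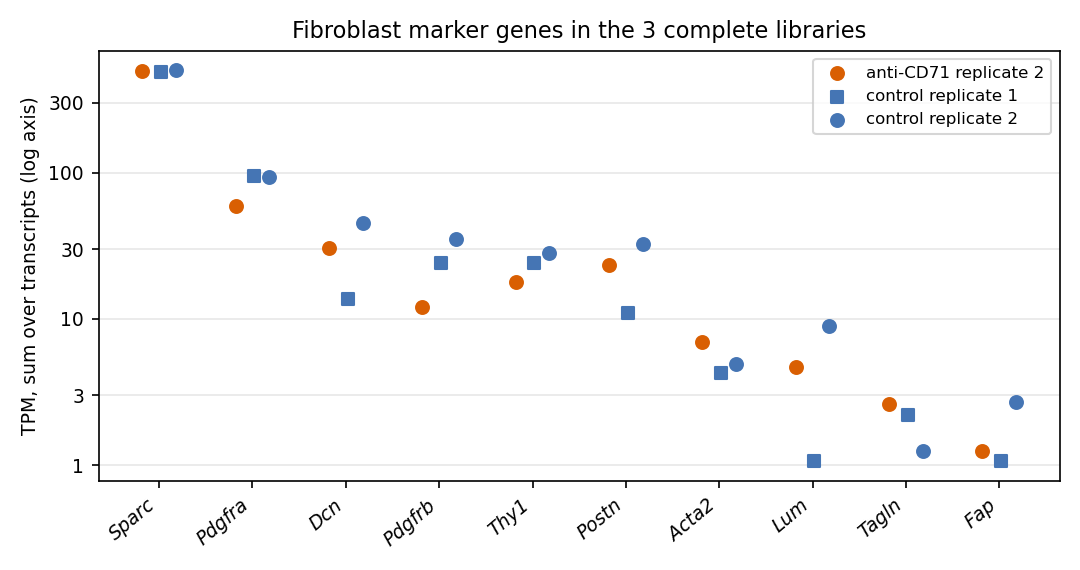
TPM of each of the 10 genes (log axis), summed over its transcripts, in anti-CD71 replicate 2 (orange) and in control replicates 1 and 2 (blue square and blue circle). Sparc lies at 494 TPM or close to it in every library, while Dcn, Postn and Lum lie lowest in control replicate 1 and highest in control replicate 2.

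The sum over the 10 genes was 653.26 TPM in anti-CD71 replicate 2, against 664.38 and 751.75 TPM in the controls, and Sparc alone made up 75.63% of it, against 73.52% and 66.54%. The label of fibroblast genes was checked against the low members: markers of activated fibroblasts and myofibroblasts (Fap, Acta2, Tagln) were among the least abundant, so the abundant signal was that of Sparc and Pdgfra. In bulk tissue a gene's level does not say which cells carry it, and fewer cells of a type and less RNA per cell cannot be told apart. The squamous label was not borne out by all its markers. Krt8 and Krt18, keratins of simple epithelium, were high, with 1255.9 and 893.37 TPM in anti-CD71 replicate 2, against 1132.27 and 657.36 TPM in control replicate 1 and 1202.77 and 680.49 TPM in control replicate 2. Krt5 and Krt14, the basal squamous keratins, stood at 31.4 and 36.37 TPM in anti-CD71 replicate 2, but Krt5 was listed at 0 in both controls and Krt14 at 0.09 and 0.1 TPM. Trp63 had 1.35 TPM in that library, against 0.18 and 0.32 TPM, Epcam 1.3 TPM, against 0.1 and 0.2 TPM, and Cdh1 2.46 TPM, against 2.15 and 1.79 TPM. The epidermis markers also stood mainly in that library (17.91 TPM, against 0.01 and 0.09 TPM). The part of skin in the Krt5 and Krt14 values was not tested. The mesenchymal genes Vim (6742.41 TPM in anti-CD71 replicate 2, against 6027.64 and 6157.96 TPM) and S100a4 (10786.69 TPM, against 11370.8 and 10308.53 TPM) were among the highest in each complete library.

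Anti-CD71 replicate 2 was then compared with both controls over all genes by limma on log2(TPM + 1), with the lone treated library assumed to vary like the controls. Among the 11982 genes tested, 2.39% were called lower and 0.476% higher at a Benjamini-Hochberg adjusted p under 0.05. Of the 10 fibroblast genes, all passed the filter of 1 TPM in 2 libraries, 1 was called lower (Pdgfra) and 0 higher. At an unadjusted p under 0.05, 3 were lower and 1 higher, where the shares over all genes were 14% and 10.7%. The median log2 change was 0.14 over the 10 genes and -0.01 over all genes, with 5 of the 10 below 0, against 51.4% of all genes. Both figures turn on which control is kept: without control replicate 1 the members' median was -0.58 with 8 below 0, and without control replicate 2 it was 0.15 with 3 below 0. Anti-CD71 replicate 2 lay below both controls for 3 of the 10 genes and above both for 2, against 42.5% and 39.5% of all genes. The differences between the members' counts and these shares were not tested.

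Of the surface proteins, the PDGF receptors and Thy1 lay below both controls and Fap between them. Pdgfra, the receptor tyrosine kinase on chromosome 5 (75151322 to 75198206 in GRCm38.p6), had 59.49 TPM in anti-CD71 replicate 2, against 94.35 and 92.81 TPM in the controls. The controls lay close together and the treated library well below them, at 63.57% of the control mean. Its log2 change was -0.64 (SE 0.08, adjusted p = 0.0321 by limma). This call was lost with a filter of 1 TPM in 1 library (adjusted p = 0.113), without a filter (adjusted p = 0.128) and with a variance prior without trend (adjusted p = 0.112).

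Pdgfrb, the second PDGF receptor, found on pericytes and fibroblasts, lies on chromosome 18 from 61045127 to 61085067. It had 12.06 TPM in anti-CD71 replicate 2, against 24.19 and 35.18 TPM in the controls. It had the largest difference among the 10 genes, at 40.63% of the control mean, but the controls themselves were further apart than for Pdgfra. The log2 change of -1.21 (SE 0.22) did not pass the test (adjusted p = 0.0628 by limma, 95% interval -1.78 to -0.64).

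Thy1, on chromosome 9 from 44043384 to 44048579, had 17.97 TPM in anti-CD71 replicate 2, against 24.2 and 28.04 TPM in the controls. The treated library again lay below both, and the log2 change of -0.51 (SE 0.12) did not pass (adjusted p = 0.0922 by limma). The 8 markers of T cells, on which mouse Thy1 is also found, were all below 0. Their median log2 change was -0.78, and 1 was called lower by limma. Cd3e (-0.12) and Cd4 (-0.15) differed least among the 8. Cd3g, a subunit of the T cell receptor complex, fell to 2 TPM in anti-CD71 replicate 2, against 5.87 and 5.21 TPM (log2 change -1.12, adjusted p = 0.0411 by limma). Cd3g is complete in all 4 libraries, and with the 3.23 TPM of anti-CD71 replicate 1 it no longer passed (log2 change -0.87, adjusted p = 0.0651 by limma). Lck, a T cell kinase (log2 change -1.11, adjusted p = 0.0511), and Cd2, a T cell adhesion receptor (-0.81, adjusted p = 0.089), did not pass. The part of T cells in the Thy1 difference was not tested.

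Over all 4 libraries the receptor transcripts could be followed in part. The Pdgfrb transcript NM_008809, which held 61.77% of the gene's TPM in anti-CD71 replicate 2 and 63.91% and 67.79% in the controls, had 10.26 and 7.45 TPM in the anti-CD71 libraries, against 15.46 and 23.85 TPM in the controls. Both anti-CD71 libraries lay below both controls. With a mean of 8.86 ± 1.99 TPM against 19.66 ± 5.93 TPM (SD, n = 2 each) its log2 change was -1.05 (SE 0.26), which did not pass among the 5894 transcripts tested (adjusted p = 0.201 by limma, unadjusted p = 0.0102, 95% interval -1.72 to -0.39). Of all these transcripts, 0.0339% were called lower and 0.0339% higher, and 10.1% were lower and 6.57% higher at an unadjusted p under 0.05.

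For Pdgfra the transcript NM_001083316 had 11.49 and 13.24 TPM in the anti-CD71 libraries, against 13.11 and 15.14 TPM in the controls. The groups overlapped, and the log2 change was -0.18 (SE 0.13, adjusted p = 0.551 by limma, 95% interval -0.53 to 0.17). A rarer Pdgfra transcript, XM_006504263, had 0.52 and 1 TPM, against 1.3 and 1.54 TPM (log2 change -0.47, adjusted p = 0.45 by limma). The only call among the 10 genes thus rests on anti-CD71 replicate 2, and what replicate 1 lists of Pdgfra is 18.38% of its TPM.

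Most of the Pdgfra signal came from transcripts that replicate 1 does not list. NM_011058 had 28.31 TPM in anti-CD71 replicate 2, against 53.47 and 41.58 TPM in the controls, and XM_006504262 had 12.01 TPM, against 18.31 and 26.62 TPM. Both lay below both controls, while NM_001083316 lay between them in that library. The GENCODE transcripts cross-referenced to NM_011058 and NM_001083316 begin at different first exons, Pdgfra-201 at position 75152306 and Pdgfra-202 at 75155899. The share of NM_001083316 in the gene was 22.26% in anti-CD71 replicate 2, against 13.9% and 16.31% in the controls, and this difference was not tested. The TPM of transcripts of 1 gene share most of their sequence, and how the unknown program split reads among them was not tested. A RefSeq promoter window of 250 bases near the first of these exons is shown because NM_011058, paired with Pdgfra-201, carries the largest part of the Pdgfra signal. The window ends before the start of Pdgfra-201 but lies inside the annotated span of the gene, and which transcript it serves was not tested. Its sequence follows (RefSeq, GRCm38.p6, chr5:75152001-75152250, plus strand, 5′ to 3′).
Pdgfra promoter: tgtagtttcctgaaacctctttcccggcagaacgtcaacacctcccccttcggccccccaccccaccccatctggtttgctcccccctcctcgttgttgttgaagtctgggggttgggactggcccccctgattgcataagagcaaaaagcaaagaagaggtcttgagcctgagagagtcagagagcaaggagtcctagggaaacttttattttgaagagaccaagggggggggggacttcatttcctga
No base is in capitals, since the 3 motifs searched on both strands had 0 matches in this window. TATAAA occurs in 12.37% of the 32851 RefSeq promoter windows of the same length. CCAAT occurs in 33.85% of them. GGGCGG occurs in 32.74% of them.

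**Figure D2:**
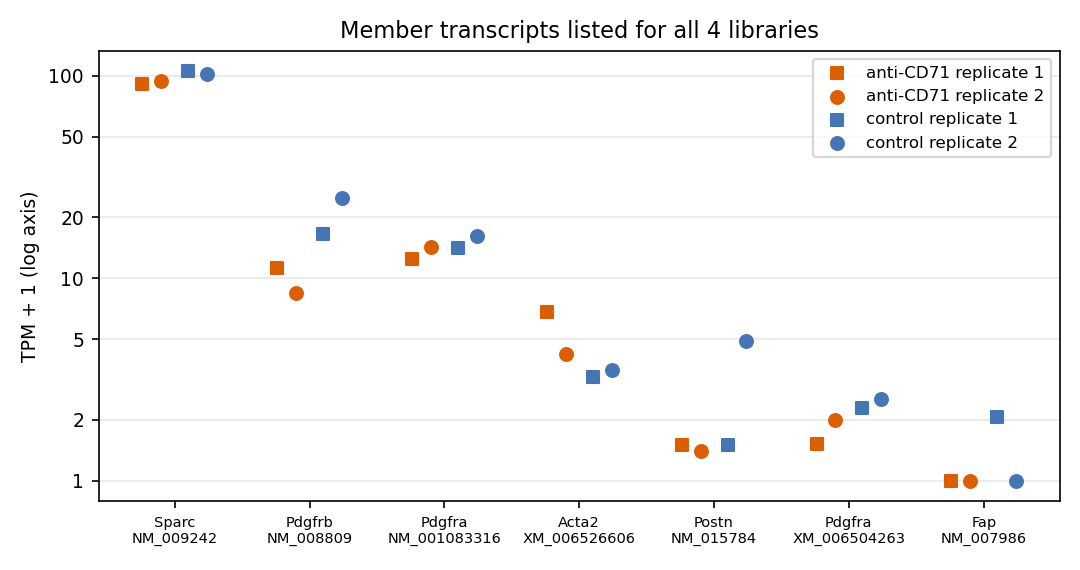
TPM + 1 (log axis) of the 7 transcripts of these genes that are listed for all 4 libraries, in anti-CD71 replicates 1 and 2 (orange) and control replicates 1 and 2 (blue), squares for replicate 1 and circles for replicate 2. The Pdgfrb and Sparc transcripts lie lower in both anti-CD71 libraries and the Acta2 transcript higher, while the Pdgfra transcript NM_001083316 overlaps.

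The contractile pair lay in the other direction at low levels. Acta2, which encodes alpha smooth muscle actin on chromosome 19 (34240336 to 34255585), had 6.94 TPM in anti-CD71 replicate 2, against 4.25 and 4.91 TPM in the controls. Its unadjusted p of 0.0183 was the smallest among the members that lay higher, and its log2 change of 0.51 (SE 0.15) did not pass (adjusted p = 0.13 by limma). Its transcript XM_006526606, about as abundant as its other transcript, had 5.78 and 3.24 TPM in the anti-CD71 libraries, against 2.26 and 2.53 TPM in the controls. Both anti-CD71 libraries lay above both controls, with replicate 1 the higher, and the log2 change of 0.66 (SE 0.28) did not pass (adjusted p = 0.337 by limma, 95% interval -0.07 to 1.39).

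Tagln, which encodes the actin-binding protein transgelin on chromosome 9 (45929628 to 45936058), had 2.61 TPM in anti-CD71 replicate 2, against 2.19 and 1.25 TPM in the controls. The gap to the nearer control was smaller than the gap between the controls, and the log2 change of 0.43 (SE 0.27) did not pass (adjusted p = 0.379 by limma). Tagln overlaps the annotated gene Pcsk7, and since the strand setting of the counting is not given, reads in the overlap cannot be told apart. The same holds for Postn, which overlaps the non-coding gene Gm31095, and for Pdgfra, within which Mir7025 lies.

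Among 14 smooth muscle and contractile genes 10 were tested and 0 were called by limma (2 at an unadjusted p under 0.05). The smooth muscle myosin gene Myh11 was at 0.81 TPM in anti-CD71 replicate 2, against 0.63 and 0.41 TPM in the controls, and the calponin gene Cnn1 at 0.05 TPM, against 0 and 0.07 TPM. The smoothelin gene Smtn stood far higher, at 91.49 TPM, against 94.62 and 91.96 TPM, and so did the caldesmon gene Cald1, at 120.8 TPM, against 134.04 and 131.27 TPM. Actg2, the gamma smooth muscle actin, was complete in all 4 libraries, with 8.9 and 9.36 TPM in the anti-CD71 libraries, against 4.47 and 7.38 TPM in the controls. It too lay above both controls without passing (log2 change 0.58, adjusted p = 0.159 over the 4 libraries by limma). Among the 1563 genes complete in all 4 libraries, 3.45% were called lower and 0.832% higher, and 31.1% lay below both controls and 28.3% above both. At an unadjusted p under 0.05, 15.6% of them were lower and 11% higher. Myl9, a myosin light chain (0.47), and Tpm2, a tropomyosin (0.22), had the smallest p-values of the list, while the abundant Tpm1 (754.57 TPM, against 820.7 and 680.9 TPM), Myh9 and Flna differed by log2 changes of 0.01, -0.08 and -0.12. Acta1, the skeletal muscle actin, followed neither Acta2 nor the treatment label and had 38.3 TPM in anti-CD71 replicate 2, against 75.89 and 17.41 TPM in the controls.

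The matrix genes Dcn, Lum and Postn differed more between the controls than between the groups. Dcn, on chromosome 10 from 97479500 to 97518163, had 30.69 TPM in anti-CD71 replicate 2, against 13.62 and 45.12 TPM in the controls. Lum, close by on chromosome 10 from 97565501 to 97572703, had 4.72 TPM, against 1.07 and 8.94 TPM. Postn, on chromosome 3 from 54359267 to 54391041, had 23.5 TPM, against 10.98 and 32.56 TPM. In all 3 the treated library lay between the controls and control replicate 2 was the highest, by 3.31-fold over control replicate 1 for Dcn, 8.36-fold for Lum and 2.96-fold for Postn.

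The log2 changes of these matrix genes had wide errors and did not pass: 0.29 for Dcn (SE 0.65, adjusted p = 0.812), 0.33 for Lum (SE 0.89, adjusted p = 0.841) and 0.29 for Postn (SE 0.58, adjusted p = 0.788), all by limma. Their 95% intervals ran from -1.37 to 1.94, from -1.94 to 2.61 and from -1.20 to 1.78, so differences of more than 1 on the log2 scale in either direction are within the error. The direction depended on which control was kept. Against control replicate 2 alone the log2 differences were -0.54, -0.80 and -0.45, and against control replicate 1 alone 1.12, 1.47 and 1.03, for Dcn, Lum and Postn in that order. Fap, on chromosome 2 from 62500936 to 62575509, had 1.25 TPM in anti-CD71 replicate 2, against 1.06 and 2.69 TPM, also between the controls (log2 change -0.29, SE 0.38, adjusted p = 0.669 by limma).

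The gap between the controls was rare among genes at large. Over the 11982 tested genes, 0.726% differed by at least 1 between the controls on log2(TPM + 1), and 0.417% were higher by that much in control replicate 2. Of the 10 members this held for 3 (Dcn, Lum and Postn), all higher in control replicate 2. Of 33 tested genes on a list of other fibroblast genes it held for 9, all higher in control replicate 2. They were the dermatopontin gene Dpt (2.52), the elastin gene Eln (2.39), Col6a2 (1.43), Islr (1.41), Lrrc15 (1.36), the collagen cross-linking enzyme gene Lox (1.36), the collagen I gene Col1a1 (1.23), Pi16 (1.22) and Mfap5 (1.16), named after their values were seen. Of 5 tested skeletal muscle markers it held for 4, all higher in control replicate 1, with Tnnt3 at 18.24 TPM in anti-CD71 replicate 2, against 20.26 and 4.35 TPM in the controls. Mylpf, a myosin light chain gene of fast muscle, had 18.24 TPM, against 36.22 and 9.1 TPM. The muscle markers and the fibroblast genes named here as apart thus differed between the controls in opposite directions. Some other matrix genes showed little gap, such as Col1a2 (-0.009), Fbn1 (-0.074), Fn1 (0.077) and Sparc (0.034). Others were higher in control replicate 2, such as Loxl1 (0.984), Fbln2 (0.845), Col3a1 (0.732), Bgn (0.659) and Col6a1 (0.525). Of 5 tested proteoglycan genes related to Dcn and Lum, 1 was at least 1 apart (Aspn, 1.375), also higher in control replicate 2. These examples were chosen after their values were seen. Whether the amount of surrounding tissue in each tumour piece bears on these gaps was not tested.

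**Figure D3:**
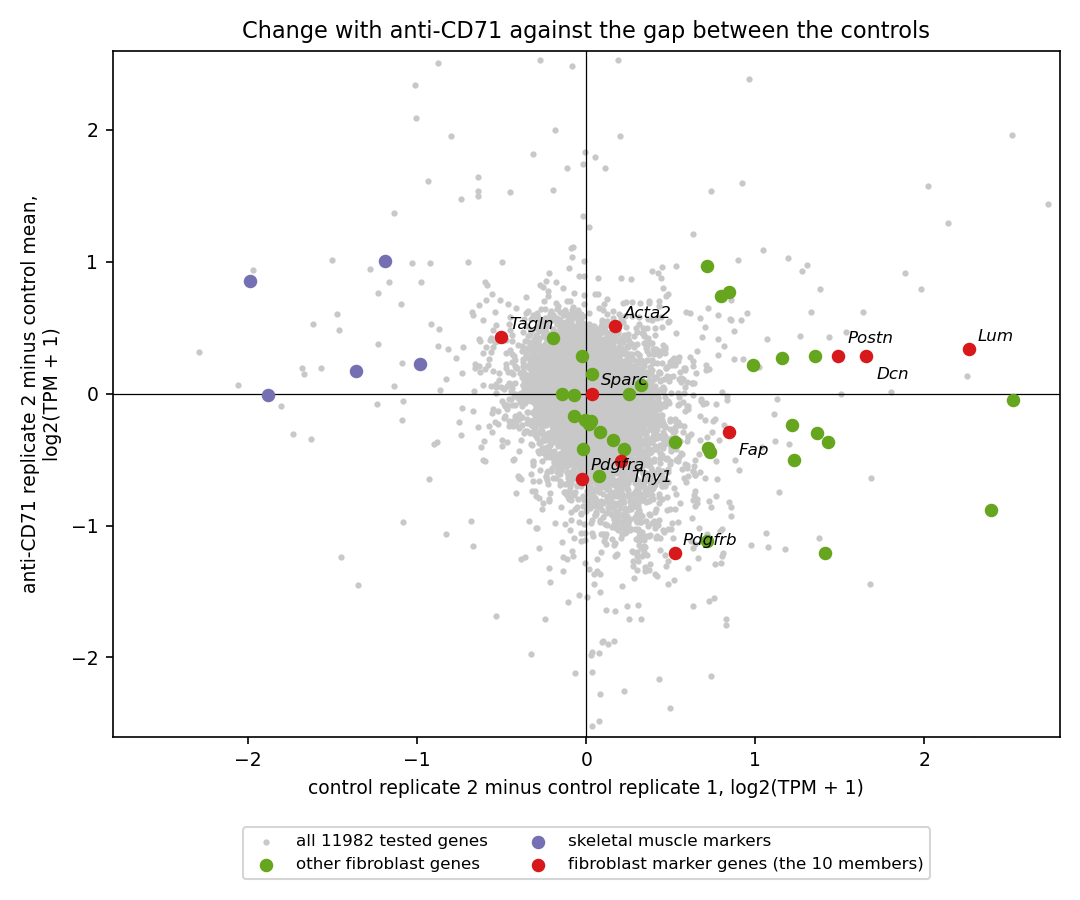
Each point is a gene: the horizontal axis is the difference between control replicate 2 and control replicate 1, and the vertical axis anti-CD71 replicate 2 minus the mean of the controls, both on log2(TPM + 1). Dcn, Postn and Lum lie to the right together with some of the other fibroblast genes and skeletal muscle markers to the left, while Pdgfra and Pdgfrb lie below the centre. A further 14 genes fall outside the axes.

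Periostin transcripts differed in make-up as well as amount. GENCODE cross-references pair NM_001198766 and NM_001313899 with Postn-204, which lacks 2 coding exons found in other forms. These transcripts held 22.12 TPM, or 94.13% of Postn, in anti-CD71 replicate 2, against 9.62 TPM (87.61%) in control replicate 1 and 21.78 TPM (66.89%) in control replicate 2. Transcripts paired with Postn-203 held 0.98 TPM, against 0.85 and 6.62 TPM, and the transcript paired with Postn-201 held 0.4 TPM, against 0.51 and 3.92 TPM. The transcripts paired with a form that has an extra exon were thus highest in control replicate 2, the library with the most Postn in all. Which exons each RefSeq transcript holds was not checked beyond these cross-references, and the difference was not tested. In anti-CD71 replicate 1 only NM_015784 is listed, with 0.51 TPM, close to anti-CD71 replicate 2 and control replicate 1.

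The exons that tell these forms apart are shown in capitals with 12 bases of the neighbouring exons in lower case, from the GENCODE transcript sequences (GRCm38, plus strand, 5′ to 3′), each followed by the junction that replaces it in Postn-204. The exon of Postn-203, its exon 17, is at chr3:54380412-54380492 and is 81 bases or 27 codons long. The exon of Postn-201, its exon 20, is at chr3:54385671-54385754 and is 84 bases or 28 codons long. Both keep the reading frame.
Postn-203, exon 17: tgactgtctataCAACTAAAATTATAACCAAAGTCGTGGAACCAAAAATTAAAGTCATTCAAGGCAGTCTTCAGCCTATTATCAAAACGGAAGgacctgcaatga
Postn-204, without it: tgactgtctatagacctgcaatga
Postn-201, exon 20: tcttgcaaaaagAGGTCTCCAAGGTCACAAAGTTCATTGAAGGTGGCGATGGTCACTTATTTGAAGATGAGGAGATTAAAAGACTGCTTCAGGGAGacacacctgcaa
Postn-204, without it: tcttgcaaaaagacacacctgcaa

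Decorin transcripts also differed in share between the complete libraries. NM_007833, paired with Dcn-202 and a first exon at position 97482367, had 9.73 TPM in anti-CD71 replicate 2, against 1.19 and 3.4 TPM in the controls. NM_001190451, paired with Dcn-201 and a first exon further upstream at 97479609, had 20.96 TPM, against 12.43 and 41.72 TPM. The first lay above both controls and the second between them, so that NM_007833 made up 31.7% of Dcn in anti-CD71 replicate 2, against 8.74% and 7.54% in the controls. Neither transcript is listed for anti-CD71 replicate 1. The difference in share was not tested, nor was the way the unknown program split reads between the transcripts.

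**Figure D4:**
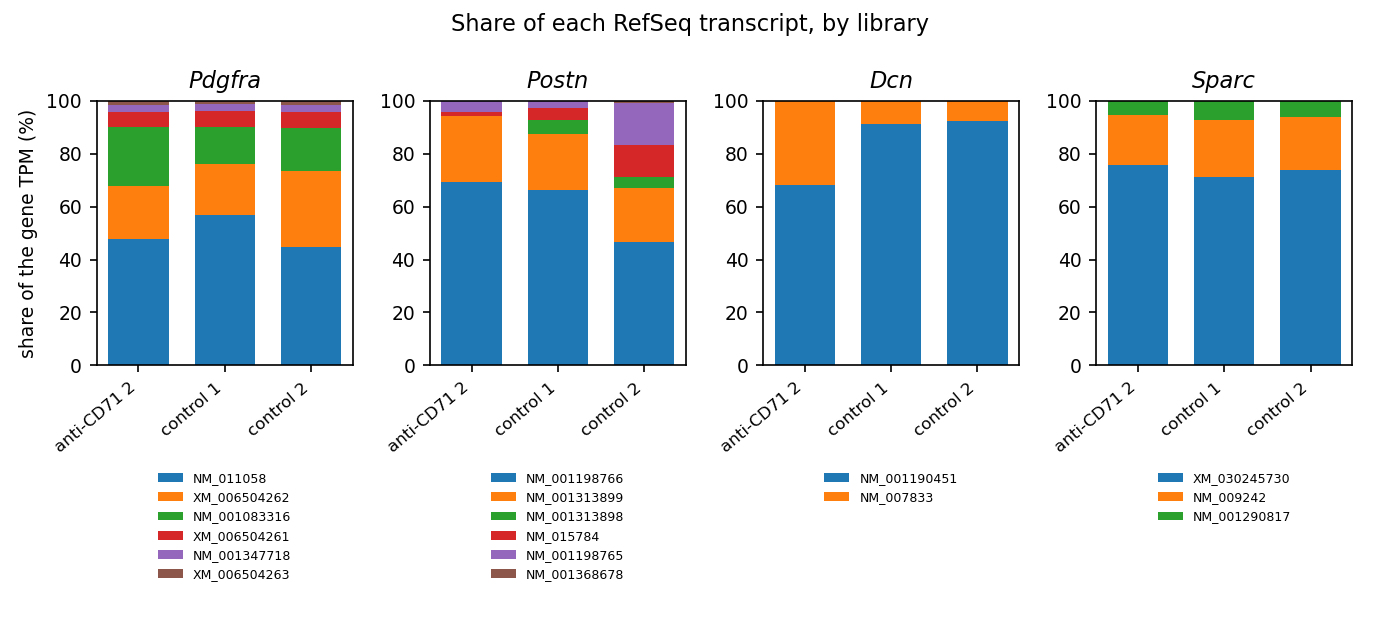
Stacked bars give the share of each RefSeq transcript in the TPM of Pdgfra, Postn, Dcn and Sparc (percent) in anti-CD71 replicate 2 and control replicates 1 and 2. The second Dcn transcript takes 31.7% in anti-CD71 replicate 2, against 8.74% and 7.54% in the controls. The Postn transcripts paired with a form that has an extra exon are largest in control replicate 2.

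Sparc differed least. This collagen-binding matricellular gene, on chromosome 11 from 55394159 to 55420080, had 494.03 TPM in anti-CD71 replicate 2, against 488.47 and 500.25 TPM in the controls. The treated library lay between the controls, with a log2 change of 0.00 (SE 0.06, adjusted p = 0.994 by limma, 95% interval -0.16 to 0.16). This interval holds no spread between treated libraries, since 1 was compared, and it assumes that they vary like the controls. Its transcript NM_009242, which carried 18.88% of Sparc in anti-CD71 replicate 2 and 21.31% and 20.13% in the controls, had 90.41 and 93.27 TPM in the anti-CD71 libraries, against 104.1 and 100.7 TPM in the controls. Both anti-CD71 libraries lay below both controls, by a small margin that did not pass (log2 change -0.16, SE 0.06, adjusted p = 0.324 by limma, 95% interval -0.32 to 0.01).

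Of the 7 transcripts listed for all 4 libraries, 5 were tested, 0 were called by limma and 1, that of Pdgfrb, had an unadjusted p under 0.05. Both anti-CD71 libraries lay below both controls for 3 of the 5 and above for 1, where the shares over all 5894 transcripts were 29.3% and 20.7%. The log2 change was below 0 for 4 of the 5 and for 55.4% of all transcripts. The other 2 did not pass the filter of 1 TPM in 2 libraries: the Postn transcript given above, and the Fap transcript NM_007986, which was listed at 0 in both anti-CD71 libraries and at 1.06 and 0 TPM in the controls.

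Genes that work beside the 10 were read from further lists. The ligands of the PDGF receptors were measured at moderate levels. Pdgfb, which binds both receptors, had 9.96 TPM in anti-CD71 replicate 2, against 15.23 and 18.98 TPM in the controls (log2 change -0.72, SE 0.15, adjusted p = 0.0785 by limma). It lay below both controls without passing, as did Pdgfc (-0.23, adjusted p = 0.207), while Pdgfa, a ligand of the alpha receptor, was at 30.54 TPM, against 27.62 and 27.27 TPM (0.15, adjusted p = 0.357). Of 3 tested ligands 0 were called, and 1 had an unadjusted p under 0.05 by limma.

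Of 13 tested genes for TGF-beta ligands, receptors and targets, 11 were below 0, with a median log2 change of -0.35. By limma 0 were called, and at an unadjusted p under 0.05 there were 7 lower and 1 higher. Tgfb3, a TGF-beta ligand, came closest with 16.25 TPM in anti-CD71 replicate 2, against 33.35 and 46.35 TPM in the controls (log2 change -1.23, SE 0.20, adjusted p = 0.0511). Tgfbi, a target gene whose product is related to periostin, had 363.98 TPM, against 537.86 and 466.67 TPM (-0.46, adjusted p = 0.0806), and the receptor gene Tgfbr2 a log2 change of -0.35 (adjusted p = 0.0894). Ltbp1, which encodes a latent TGF-beta binding protein, was at 122.66 TPM, against 131.7 and 115.76 TPM (-0.01, adjusted p = 0.965). Tgfb1, complete in all 4 libraries, had 60.54 and 61.23 TPM in the anti-CD71 libraries, against 76.84 and 88.37 TPM in the controls. The anti-CD71 libraries lay close together and below both controls, and the gene did not pass (a log2 change of -0.43, SE 0.09, with an adjusted p = 0.0557 over the 4 libraries by limma).

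Dcn and Lum belong to the small leucine-rich proteoglycans. Of 5 tested relatives 1 was called lower by limma, and the median log2 change of the 5 was -0.68, with 5 below 0. Ogn, which encodes osteoglycin, fell to 102.27 TPM in anti-CD71 replicate 2, against 158.89 and 169.46 TPM in the controls (log2 change -0.68, SE 0.08, adjusted p = 0.0316). Bgn, which encodes biglycan, had 162.14 TPM, against 307.42 and 485.91 TPM (-1.25, SE 0.26, adjusted p = 0.0771), and Aspn, which encodes asporin, 3.27 TPM, against 4.65 and 13.65 TPM (-1.09, adjusted p = 0.287). Bgn was thus more abundant than Dcn and Lum in each complete library.

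Among 33 tested genes of the other fibroblast list, 1 was called lower and 0 higher by limma, 22 were below 0 and the median log2 change was -0.20. Fn1, which encodes the adhesion protein fibronectin, fell to 401.67 TPM in anti-CD71 replicate 2, against 603.49 and 636.45 TPM in the controls (log2 change -0.62, SE 0.07, adjusted p = 0.0288). Mxra8 (-0.42, adjusted p = 0.0694) and the secreted factor gene Serpinf1 (482.58 TPM, against 582.15 and 650.45 TPM, adjusted p = 0.0969) did not pass, nor did Vim (0.15) and S100a4 (-0.01). The gelatinase gene Mmp2, complete to 99.85% in all 4 libraries, had 86.26 and 95.82 TPM in the anti-CD71 libraries, against 113.74 and 120.48 TPM in the controls. It lay below both controls without passing (a log2 change of -0.36, SE 0.08, with an adjusted p = 0.0683 over the 4 libraries by limma). Vim over the same 4 libraries overlapped, with 5977.66 and 6742.41 TPM, against 6027.64 and 6157.96 TPM (0.06, adjusted p = 0.627).

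Relatives of single members gave 1 call. Csf1r, the macrophage receptor that belongs to the same kinase family as the PDGF receptors, fell to 66.83 TPM in anti-CD71 replicate 2, against 125.77 and 156.93 TPM in the controls (log2 change -1.06, SE 0.14, adjusted p = 0.0386 by limma). Csf1r is complete in all 4 libraries, and with the 69.38 TPM of anti-CD71 replicate 1 it stayed called (log2 change -1.03, SE 0.11, adjusted p = 0.032 by limma). Tagln2, the transgelin found widely outside muscle, had 483.82 TPM in anti-CD71 replicate 2, against 400.17 and 402.04 TPM in the controls (0.27, adjusted p = 0.0876 by limma). It stood far above Tagln in each complete library. The cytoplasmic actins Actb (-0.06) and Actg1 (0.01) differed little.

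Markers of other cells were read beside these results. All 8 pericyte markers were tested, 0 were called by limma and 1 had an unadjusted p under 0.05. Cspg4, an NG2 proteoglycan of pericytes, had 27.55 TPM in anti-CD71 replicate 2, against 31.96 and 39.69 TPM (log2 change -0.36, adjusted p = 0.216), Mcam 22.94 TPM, against 29.45 and 29.69 TPM (-0.35, adjusted p = 0.103), and Ndufa4l2 78.27 TPM, against 77.21 and 99.19 TPM. The pericyte sum was 144.83 TPM, against 154.84 and 185.71 TPM, and its part in the Pdgfrb difference was not tested. Of 7 endothelial markers 0 were called by limma (2 at an unadjusted p under 0.05), with Pecam1 at a log2 change of -0.36 (adjusted p = 0.106), the tight junction gene Cldn5 at -0.68 (adjusted p = 0.0785), Cdh5 at -0.05 and Egfl7 at 0.11.

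Macrophage markers fell, with 5 of 7 called lower by limma: Csf1r, Cd68 (log2 change -0.79), Itgam (-0.81) and the complement genes C1qa (-1.23) and C1qb (-1.37). Their sum was 1209.84 TPM in anti-CD71 replicate 2, against 2358.15 and 2901.57 TPM in the controls. Epithelial markers called higher were Krt18 (0.42) and Sfn (19.35 TPM, against 2.74 and 2.53 TPM, log2 change 2.49). Of the adipocyte markers Cfd was called higher (15.32 TPM, against 1.9 and 0.99 TPM, 2.76), and Adipoq (2.54 TPM, against 0.78 and 0.13 TPM) and Cidec (1.82 TPM, against 0.21 and 0.08 TPM) did not pass the filter. None of the 7 epidermis markers found passed the filter; Krt1 had 5.21 TPM and Krt10 5.44 TPM in anti-CD71 replicate 2, with Krt1 listed at 0 in both controls. Dsg1a, complete in all 4 libraries, was listed at 0 in anti-CD71 replicate 1 and at 2.58 TPM in replicate 2, and at 0 in both controls. The part of skin, fat or macrophages in the fibroblast gene values was not tested, nor was the part of skin in the Krt18 and Sfn values.

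The last list held markers of mesothelium and nerve sheath, of which Msln was tested (44.62 TPM, against 27.35 and 22.45 TPM, log2 change 0.82, adjusted p = 0.0529 by limma). Of the muscle markers Ckm (7.07 TPM, against 5.08 and 1.66 TPM) and Tnni2 (25.6 TPM, against 30.96 and 15.17 TPM) did not pass either, and 0 of 5 tested were called by limma, with 0 at an unadjusted p under 0.05.

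**Figure D5:**
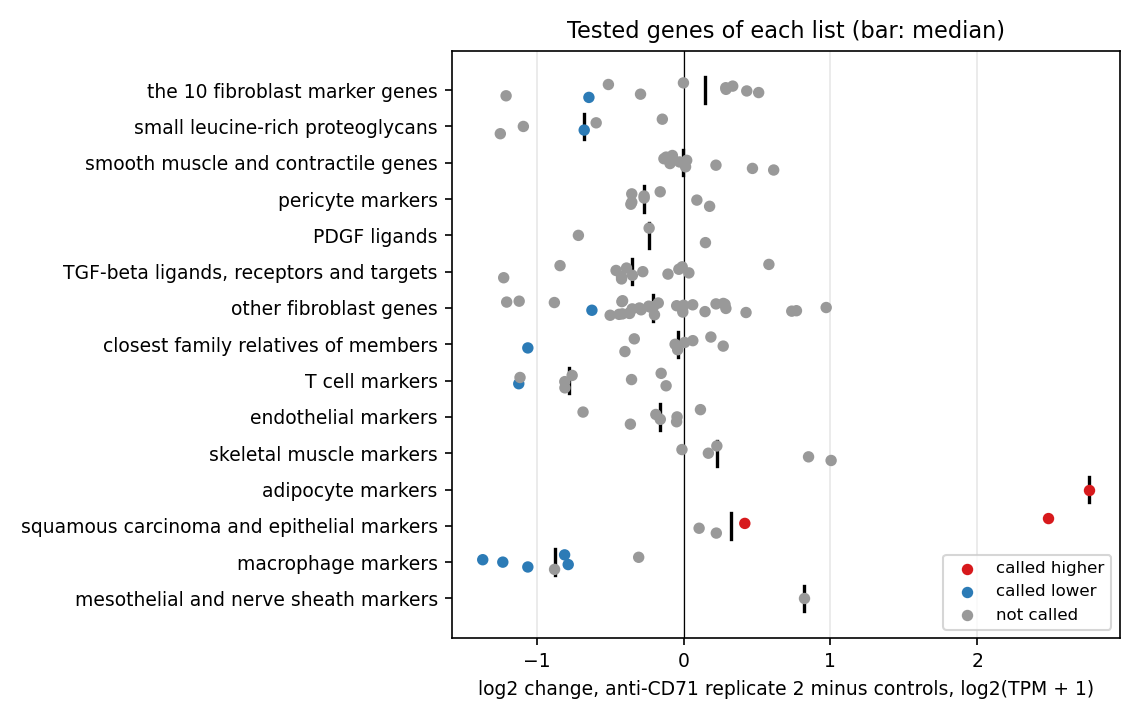
Each point is a tested gene, placed by its log2 change in anti-CD71 replicate 2 over the controls, with 1 row per list and a bar at the row's median. The 10 fibroblast marker genes spread to both sides of 0 with 1 call (Pdgfra, blue), while the proteoglycan, T cell and macrophage rows lie to the left.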

How the data were processed

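The deposited values, 1 per RefSeq transcript and library, were taken as TPM because the complete libraries sum to between 999998.88 and 1000000.86. No file header names the unit. Per the submitters' processing notes the build was GRCm38.p6, and neither aligner nor quantification program is given in the sources used here. Read depth cannot be had from TPM, so the precision rests on the number of libraries. An NCBI RefSeq gene table of the same build matched 58425 of 59881 transcripts, including 1744 copies at a second locus that were added to their gene, and TPM were summed to 17574 genes. None of the 10 genes has such a copy. In Cd2, Cldn5 and Lck the copies held 50%, 50% and 100% of the gene's TPM and may count the same reads again.

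R 4.3.3 and limma 3.58.1 were run on log2(TPM + 1) with a trend in the variance prior. The filter kept features that reached 1 TPM in 2 libraries. A call is a Benjamini-Hochberg adjusted p under 0.05 over all features tested. Fold changes on this scale understate those of low genes. The comparisons were anti-CD71 replicate 2 with both controls (11982 genes), and all 4 libraries by transcript (5894) or by gene (1563). The last took genes whose shared transcripts carried 90% of their TPM, which no member reached. In that last comparison the anti-CD71 libraries differed from each other more (SD 0.294 of their log2 differences) than the controls did (0.222), whereas the first assumes equal spread.

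The members and the 15 other lists were chosen with earlier results of these data known. Of 165 genes in all lists 161 were found. Besides the 10 members, the text names in each list the genes called, the 2 smallest p-values where fewer than 2 were called, and the 3 highest levels. Genes outside this rule, such as Myh11, Cnn1, Smtn, Cald1, Actg2, Acta1, Mmp2, Tgfb1, Krt5 and those apart between the controls, were chosen after their values were seen. Some genes that the rule names are not reported here. The genes apart between the controls share that gap with Dcn, Lum and Postn. The scripts were tested on simulated data. Alternatives were the pseudocount, the filter, equal library medians, the prior without trend, the replicate block, the listing limit and leaving out each library.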

Additional observations from a re-analysis of the deposited data

How the results depend on the processing

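The single call among the 10 genes over the 3 complete libraries was lost under 3 alternatives: 0 were called lower without a filter on low values, with a filter of 1 TPM in 1 library and with a variance prior without trend. These settings also cut the calls over all genes, to 0, 12 and 22 lower, from 286, while the log2 change of Pdgfra stayed at -0.64. The median degrees of freedom of the test fell to 1.882, 2.881 and 3.802, from 5.033. It stayed called with either other pseudocount and with equal library medians. Leaving out 1 control, which leaves a value with no test, gave log2 changes from -0.54 to 1.12 for Dcn, from -0.80 to 1.47 for Lum, from -0.45 to 1.03 for Postn, from -0.71 to 0.13 for Fap and from -0.018 to 0.0163 for Sparc. With equal library medians Sparc had 0.0409, and the median over all genes moved from -0.0082 to 0.0336. The causes of the lost call and of the gaps between the controls were not tested.

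By transcript, 0 members were called in any alternative run that kept all 4 libraries. At the level of genes, 0 members were tested unless the listing limit was lowered, so the other runs could call none. With 50% of a gene's TPM as the limit Pdgfrb was tested by gene and was not called (log2 change -1.05, adjusted p = 0.0752 by limma). Counting any listed transcript, 4 members were tested and 0 were called. With the replicate number as a block 0 member transcripts were called higher or lower, and 0 of all transcripts were called in either direction (896 at an unadjusted p under 0.05). By gene, 2 were called higher and 1 lower with the block, against 13 and 54 without it. Same-numbered libraries did not deviate together over the 1563 genes and 5894 transcripts compared in all 4 libraries (correlation of deviations -0.01 and -0.02). A single correlation of this kind cannot show whether the numbers mark a pairing, and the main comparisons used no block. No paired analysis was possible because only 1 anti-CD71 library is complete, for the comparison over 3 libraries.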
